A study of Mus musculus with 14 samples.

Results

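The genes described here are 10 interferon-induced antiviral genes of the mouse: Ifit1, Ifit2, Ifit3 and Ifit3b of the IFIT family, Oas1a, Oas2, Oas3, Oasl1 and Oasl2 of the OAS family, and Isg15. They were chosen by gene symbol, and all 10 were found once each among the 55357 genes of the count files. Whole liver RNA came from 14 male C57BL/6 mouse samples, 8 with acute liver failure and 6 healthy controls. The model mice were given lipopolysaccharide (LPS, a component of bacterial walls) at 10 µg/kg and D-galactosamine (D-GalN, an amino sugar toxic to hepatocytes) at 300 mg/kg into the peritoneum, and the control mice were given normal saline. All mice were 5 to 6 weeks old before 1 week of acclimatisation, no mutation or transgene is named for either group, and livers were collected at 24 h. The labels name no batch and do not state whether samples came from separate animals. The p-values therefore reflect sample-to-sample spread, which may be technical.

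When viral nucleic acid or bacterial LPS is sensed, cells can secrete type I interferon, whose receptor activates transcription factors in the cell. These bind a short sequence, the interferon-stimulated response element, in front of their target genes. IFIT proteins bind RNA or hold together complexes that do, and limit translation of foreign RNA. OAS enzymes sense duplex RNA and make short oligoadenylates, which lead to the cutting of RNA. ISG15 is a small ubiquitin-like protein that is attached to other proteins or released from cells.

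The promoters of these genes are shown first, because the response element links the families. RefSeq promoter windows on the build GRCm38.p6, from 250 bases before to 50 bases after an annotated start, were at hand for 9 of the 10 genes, with 2 windows for Ifit2. The read counts were made on another build, GRCm39, so these coordinates serve only to locate the sequences. The core of the response element was searched as the letters GAAA, any 2 bases and GAAA again, on both strands, with overlapping matches counted apart. It was found in 6 of the 9 genes (Ifit1, Ifit3, Ifit3b, Oas1a, Oas3 and Isg15), against 3.44% of all 32851 promoter windows and 3.99% of the 27025 genes in the table. The windows of Ifit2, Oasl1 and Oasl2 did not hold these letters. The Ifit1 window (chr19:34640639-34640938, plus strand) and the Isg15 window (chr4:156200769-156201068, minus strand) are printed whole, since Ifit1 varied most among the model livers and Isg15 had the highest level per kb of the 10. Capitals mark the matches.
Ifit1: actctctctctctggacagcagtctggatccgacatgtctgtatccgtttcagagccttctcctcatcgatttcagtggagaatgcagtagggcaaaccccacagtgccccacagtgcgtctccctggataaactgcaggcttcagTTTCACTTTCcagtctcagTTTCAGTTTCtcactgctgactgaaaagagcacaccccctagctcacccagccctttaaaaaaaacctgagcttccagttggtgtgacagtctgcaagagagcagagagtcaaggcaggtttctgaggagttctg
Isg15: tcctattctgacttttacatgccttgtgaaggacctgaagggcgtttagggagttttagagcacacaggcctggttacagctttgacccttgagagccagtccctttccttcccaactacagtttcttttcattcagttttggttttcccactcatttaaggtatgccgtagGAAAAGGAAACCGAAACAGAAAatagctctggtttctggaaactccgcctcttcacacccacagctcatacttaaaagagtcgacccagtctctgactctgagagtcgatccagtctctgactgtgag
The Ifit1 window held 2 matches that begin 104 and 85 bases before the start, and the Isg15 window 3 overlapping matches that begin 78, 72 and 66 bases before it. Ifit1bl2, a relative of Ifit1 on the opposite strand, has an annotated start 146 bases from the start of Ifit1. The windows at these starts share 245 bases, and the same pair of matches lies in both. Another window of Ifit1bl2 (chr19:34629762-34630061, minus strand) held 0 matches.

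Shorter stretches around the matches are given for Ifit3 (chr19:34583358-34583431, plus strand), Ifit3b (chr19:34607754-34607827, plus strand), Oas1a (chr5:120907515-120907560, minus strand), its close relative Oas1g (chr5:120887601-120887646, minus strand) and Oas3 (chr5:120777710-120777749, minus strand), to show that copies of a gene carry the same sequence here.
Ifit3: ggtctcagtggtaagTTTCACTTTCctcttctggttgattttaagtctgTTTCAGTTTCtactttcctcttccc
Ifit3b: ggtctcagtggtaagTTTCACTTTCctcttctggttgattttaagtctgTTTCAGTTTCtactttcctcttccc
Oas1a: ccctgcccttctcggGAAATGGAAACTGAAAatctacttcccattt
Oas1g: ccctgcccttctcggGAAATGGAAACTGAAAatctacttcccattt
Oas3: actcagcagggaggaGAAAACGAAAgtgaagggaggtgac
All 74 bases of the Ifit3 stretch were identical in Ifit3b, and all 46 bases of the Oas1a stretch were identical in Oas1g. A gamma-activated site, searched as TTCNNNGAA, was found in the Oas1a window, in 1 of the 2 Ifit2 windows and in 8.30% of all windows. A kB site, searched as GGGA, any base and TTTCC, was found in none of the 9 genes and in 0.411% of all windows. These matches describe letters in a window and say nothing of binding in these livers.

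All 10 genes were higher in the model livers, with no overlap between the groups for any of them. Log2 fold changes lay between 2.83 for Oasl1 and 5.42 for Oas3, with a median of 4.20, against a median of 0.0096 over all 12915 genes tested. By edgeR's quasi-likelihood test with Benjamini-Hochberg adjustment over all genes tested, the adjusted p lay between 1.07e-10 (Oas2) and 5.48e-07 (Ifit1). Of all genes tested, 47.9% were called in either direction at an adjusted p under 0.05, 26.6% were called higher in model, and 14.6% had every model library above every control library. All 10 passed the filter on low counts, so the count of 10 covers every gene chosen. The values per library are CPM, read counts per 1000000 counts in genes after scaling with TMM factors, and each fold change is model over control. In whole tissue, a change in the number of cells of a type and a change in RNA per cell cannot be told apart.

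**Figure D1:**
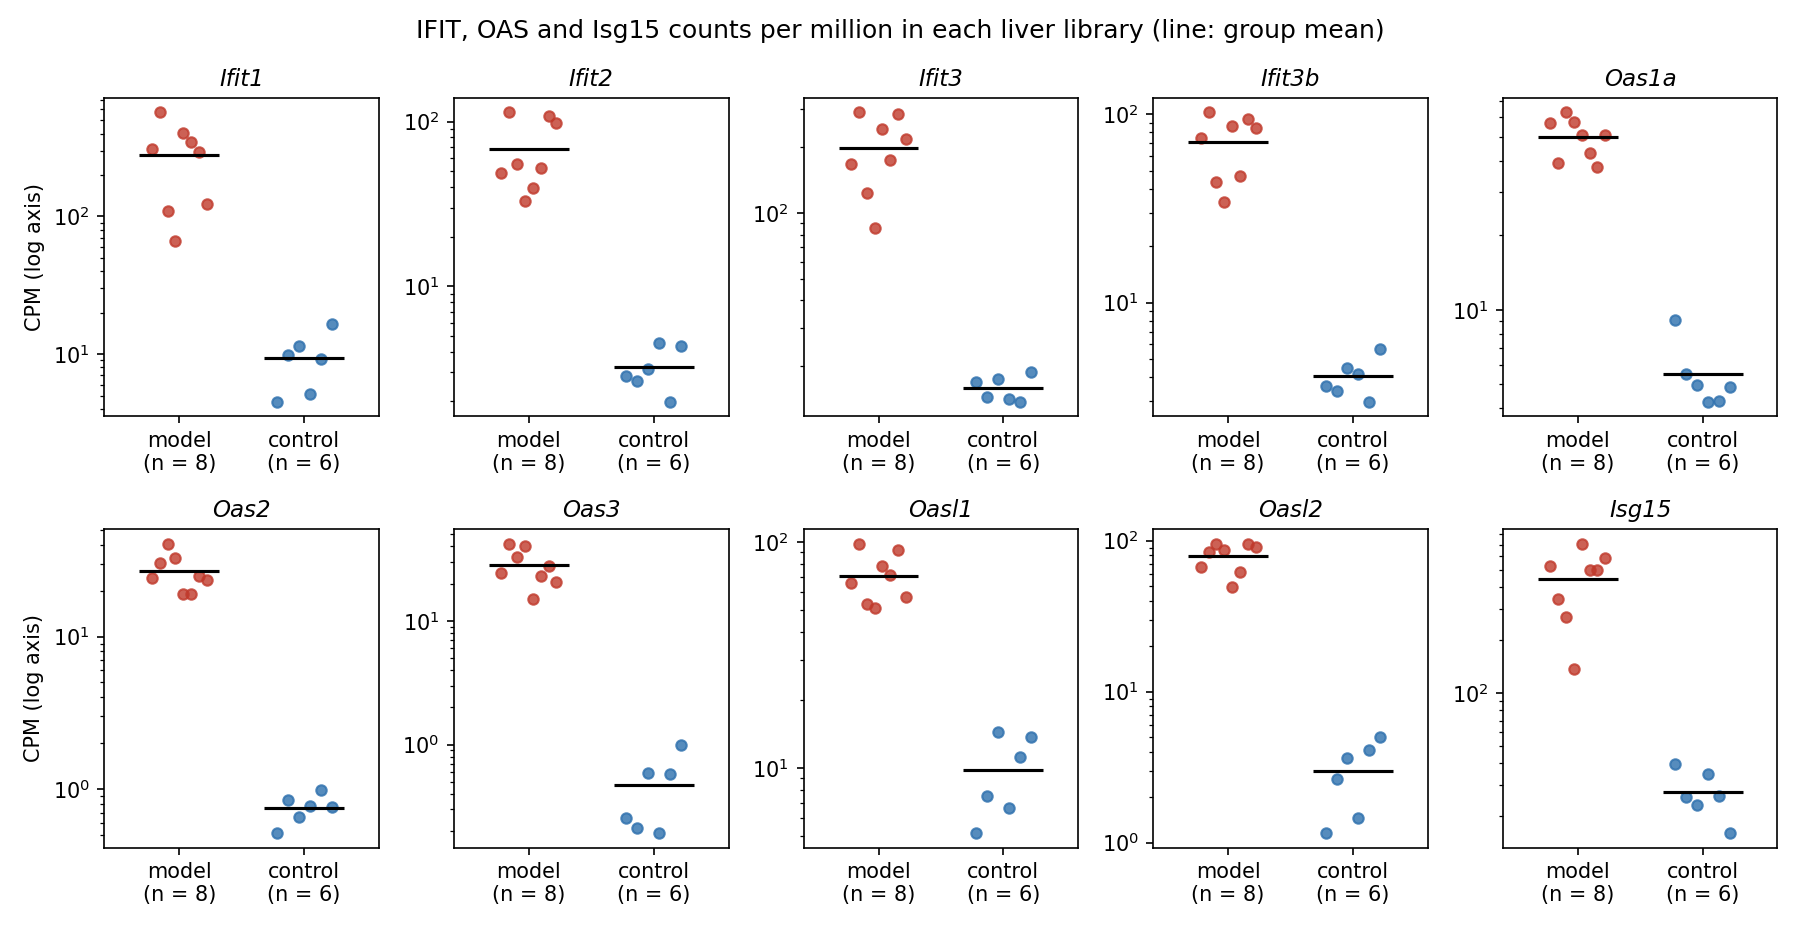
CPM of the 10 genes in each library on a log axis, with model on the left, control on the right and a line at each group mean. In every panel the lowest of the 8 model libraries lies above the highest of the 6 control libraries.

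Among the IFIT genes, Ifit1, whose protein binds viral RNA with an incomplete cap, had a lowest, median and highest level of 66.0, 299.8 and 568.7 CPM in model livers, against 4.50, 9.55 and 16.5 CPM in control livers. Its log2 fold change was 4.85 (SE 0.51), and its lowest model library was 4.00 times its highest control library. Both groups were spread widely for this gene, with a coefficient of variation of 61.4% in model and 46.6% in control.

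Ifit2, which partners with other IFIT proteins, had a lowest, median and highest level of 32.7, 53.9 and 114 CPM in model livers, against 1.98, 2.98 and 4.53 CPM in control livers (log2 fold change 4.33, SE 0.35). Model 2, model 7 and model 8 stood apart from the other model libraries, at 114, 108 and 97.5 CPM against 32.7 to 55.5 CPM.

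Ifit3, a partner of IFIT1 and IFIT2, had a lowest, median and highest level of 85.4, 197 and 289 CPM in model livers, against 13.8, 15.7 and 18.8 CPM in control livers (log2 fold change 3.63, SE 0.28). The controls were close together for this gene, with a coefficient of variation of 13.1%. Ifit3b, a mouse copy of Ifit3, had a lowest, median and highest level of 34.3, 79.6 and 102 CPM in model livers, against 2.97, 3.87 and 5.69 CPM in control livers (log2 fold change 4.07, SE 0.30). In the GENCODE M21 transcripts, 51.2% of the 50-base stretches of Ifit3 also occur in Ifit3b, and 44.5% of those of Ifit3b occur in Ifit3. Reads from such stretches align to several places, and such alignments, which made up 13.4% to 18.6% of all entries of a library, are listed apart from the genes in the files. The values of both genes may therefore lack reads, and a split between them is uncertain.

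Among the OAS genes, Oas1a, a synthetase activated by duplex RNA, had a lowest, median and highest level of 37.6, 50.9 and 62.6 CPM in model livers, against 4.24, 4.92 and 9.12 CPM in control livers (log2 fold change 3.15, SE 0.22). It was the most even of the 10 among model livers, with a coefficient of variation of 18.2%. Its transcripts share 57.6% of their 50-base stretches with Oas1g, so its level is uncertain in the same way.

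Oas2, another synthetase that duplex RNA activates, had a lowest, median and highest level of 18.9, 24.6 and 40.6 CPM in model livers, against 0.514, 0.769 and 0.989 CPM in control livers (log2 fold change 4.87, SE 0.25). Oas3, the largest of the family and a sensor of long duplex RNA, had a lowest, median and highest level of 14.97, 26.0 and 42.0 CPM in model livers, against 0.193, 0.417 and 0.985 CPM in control livers (log2 fold change 5.42, SE 0.36). The lowest model library was 19.1 times the highest control library for Oas2 and 15.2 times for Oas3, the widest gaps of the 10 genes. Control counts of Oas3 were low, and the prior count of 2 used for fold changes pulls such values towards 0. With a prior count of 0.5, its log2 fold change was 5.69.

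Oasl1, which in mice limits translation of the interferon regulator IRF7, had a lowest, median and highest level of 50.8, 68.8 and 98.2 CPM in model livers, against 5.14, 9.37 and 14.5 CPM in control livers (log2 fold change 2.83, SE 0.27). It had the smallest fold change of the 10. Oasl2, an OAS-like protein with ubiquitin-like ends, had a lowest, median and highest level of 49.2, 85.6 and 95.4 CPM in model livers, against 1.16, 3.13 and 4.98 CPM in control livers (log2 fold change 4.62, SE 0.32). For both OAS-like genes every model library lay above every control library.

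Isg15 had a lowest, median and highest level of 138, 500.8 and 709 CPM in model livers, against 16.0, 25.9 and 39.6 CPM in control livers (log2 fold change 4.02, SE 0.36). Its 2 lowest model libraries, model 4 and model 3, were still above all controls. Divided by exonic length, its level was the highest of the 10 in both groups, at 592 ± 244 CPM per kb in model (SD, n = 8) and 36.5 ± 11.2 CPM per kb in control (SD, n = 6). In model livers, Ifit3 and Ifit1 followed at 114 ± 42.1 and 104 ± 64.2 CPM per kb (SD, n = 8 each), a difference smaller than their spread. Ifit3b was at 35.5 ± 12.9 CPM per kb, Oasl1 at 27.2 ± 6.73 and Oas1a at 26.4 ± 4.82 (SD, n = 8 each). Ifit2, Oasl2, Oas2 and Oas3 came last at 17.4 ± 8.26, 12.3 ± 2.68, 6.02 ± 1.67 and 3.99 ± 1.35 CPM per kb (SD, n = 8 each). Of these 10, Isg15, Ifit3, Ifit2, Oasl2, Oas2 and Oas3 held the same places in this order in model and control livers. Exonic lengths came from GENCODE M21, matched by gene identifier. They include the stretches that Ifit3, Ifit3b and Oas1a share with other genes, so these 3 levels may be too low and their places in the order are uncertain.

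Relatives of these genes gave a wider range of fold changes. Ifit1bl2, the neighbour of Ifit1, averaged 14.7 ± 4.08 CPM in model and 0.150 ± 0.0890 CPM in control (SD, n = 8 and 6), with a log2 fold change of 5.55 (SE 0.31, edgeR adjusted p = 2.39e-10; 6.22 with a prior count of 0.5). Ifit1bl1 rose by 3.28 (SE 0.40) and Oas1g by 3.22 (SE 0.33). Oas1b rose by 2.04 (SE 0.29), while Oas1c averaged 2.94 ± 0.954 CPM in model and 2.17 ± 0.814 CPM in control (SD, n = 8 and 6) and did not pass the test (edgeR adjusted p = 0.25). Oas1d, Oas1f and Oas1h were too low to test, with 2, 29 and 7 counts over all model libraries and 2, 0 and 0 over all control libraries, and Oas1e had no count.

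**Figure D2:**
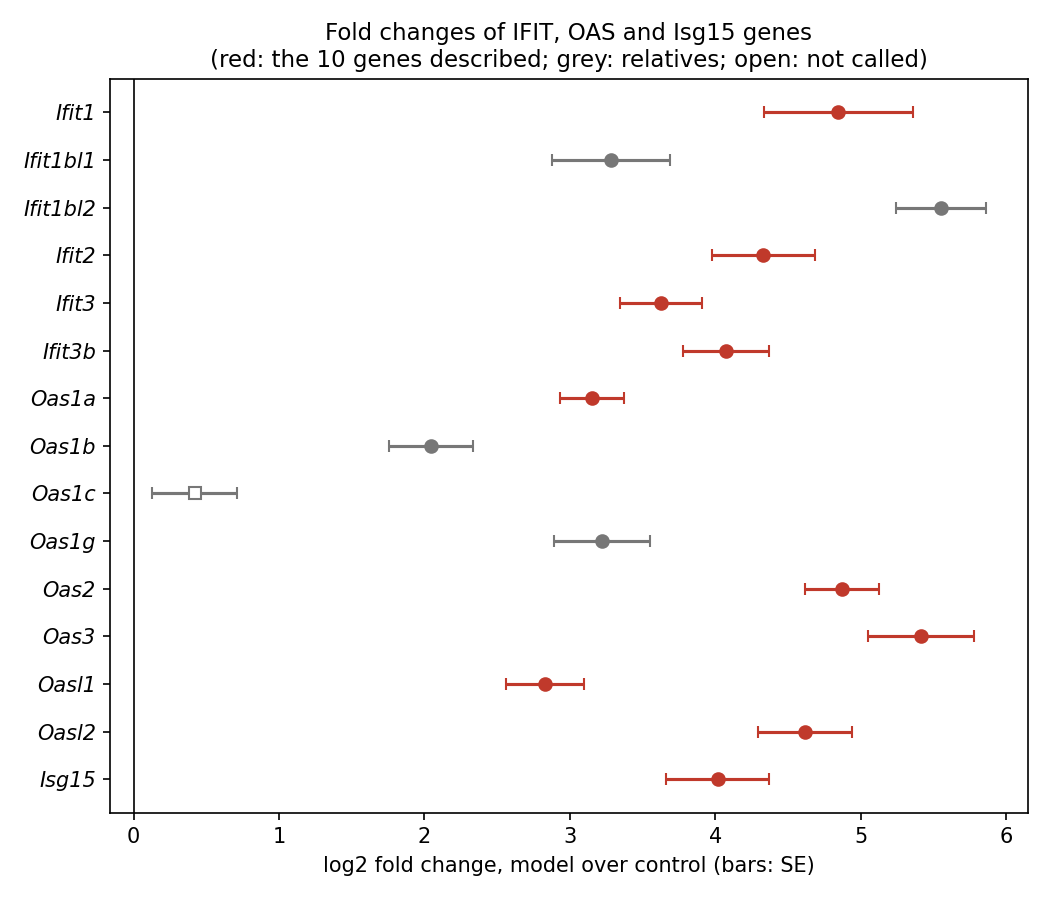
Log2 fold change of model over control with its SE for the 10 genes (red) and their relatives (grey), where an open symbol did not pass the test. Oas3 and Ifit1bl2 lie farthest to the right, at 5.42 and 5.55, and Oas1c lies at 0.42.

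The model livers did not order themselves in the same way for every gene. Model 2 had the highest level of 6 of the 10 genes, and model 4 the lowest level of 6. For Ifit1, model 4, model 3 and model 8 were at 66.0, 110 and 124 CPM, while the other model libraries were at 292 CPM or more. For Isg15, model 4 and model 3 were again the lowest, at 138 and 273 CPM, and model 5 was the highest at 709 CPM. For Oas2, the same model 3 and model 4 were the highest, at 40.6 and 32.8 CPM, and model 5 and model 6 were the lowest, both at 18.9 CPM. Oas1a was also highest in model 3 and model 4, at 62.6 and 57.2 CPM.

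Set against the other 6 model libraries, the mean log2 CPM of model 3 and model 4 differed by -1.86 for Ifit1, -1.41 for Isg15, -1.12 for Ifit3, -1.03 for Ifit3b, -0.72 for Ifit2 and -0.54 for Oasl1. The same difference was 0.65 for Oas2, 0.59 for Oas3, 0.38 for Oas1a and 0.33 for Oasl2. These values are a description, since this division of the genes was seen in the data and no test was made of it. Model 3 and model 4 held the most mitochondrial ribosomal RNA among model libraries, 5.79% and 4.10% of counts in genes, against 0.816% to 2.21% in the other 6. Over all genes tested, the same difference had a median of 0.27 in the shortest and -0.14 in the longest of 5 classes of genes by exonic length. Of the genes in the shortest class, Isg15, Ifit3 and Ifit3b had the negative differences given above and Oas1a a positive one. Neutrophil markers summed to 1671 and 1532 CPM in model 3 and model 4, inside the range of 1277 to 2900 CPM of the other model libraries. The part of RNA quality or cell content in this pattern was not tested. Without these libraries, all 10 genes were still called higher, with log2 fold changes between 2.96 for Oasl1 and 5.28 for Oas3.

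Control livers differed among themselves as well. Control 6 had the highest level of 5 of the 10 genes and control 1 the lowest of 4. Isg15 went against this order, at 16.0 CPM in control 6, its lowest control, and 39.6 CPM in control 1, its highest. Genes of long total exonic length stood highest in control 6 and lowest in control 1 relative to genes of short total exonic length. The difference between the longest and the shortest class was 1.17 in control 6 and -0.78 in control 1 on the log2 scale. The part of this length trend in the spread among controls was not tested. The contrast between the groups followed exonic length too. Its median log2 fold change, model over control, was -0.22 in the shortest class of genes and 0.27 in the longest. With a per-library offset for exonic length, chosen after seeing the data, all 10 genes were called higher, with log2 fold changes between 2.87 and 5.32.

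**Figure D3:**
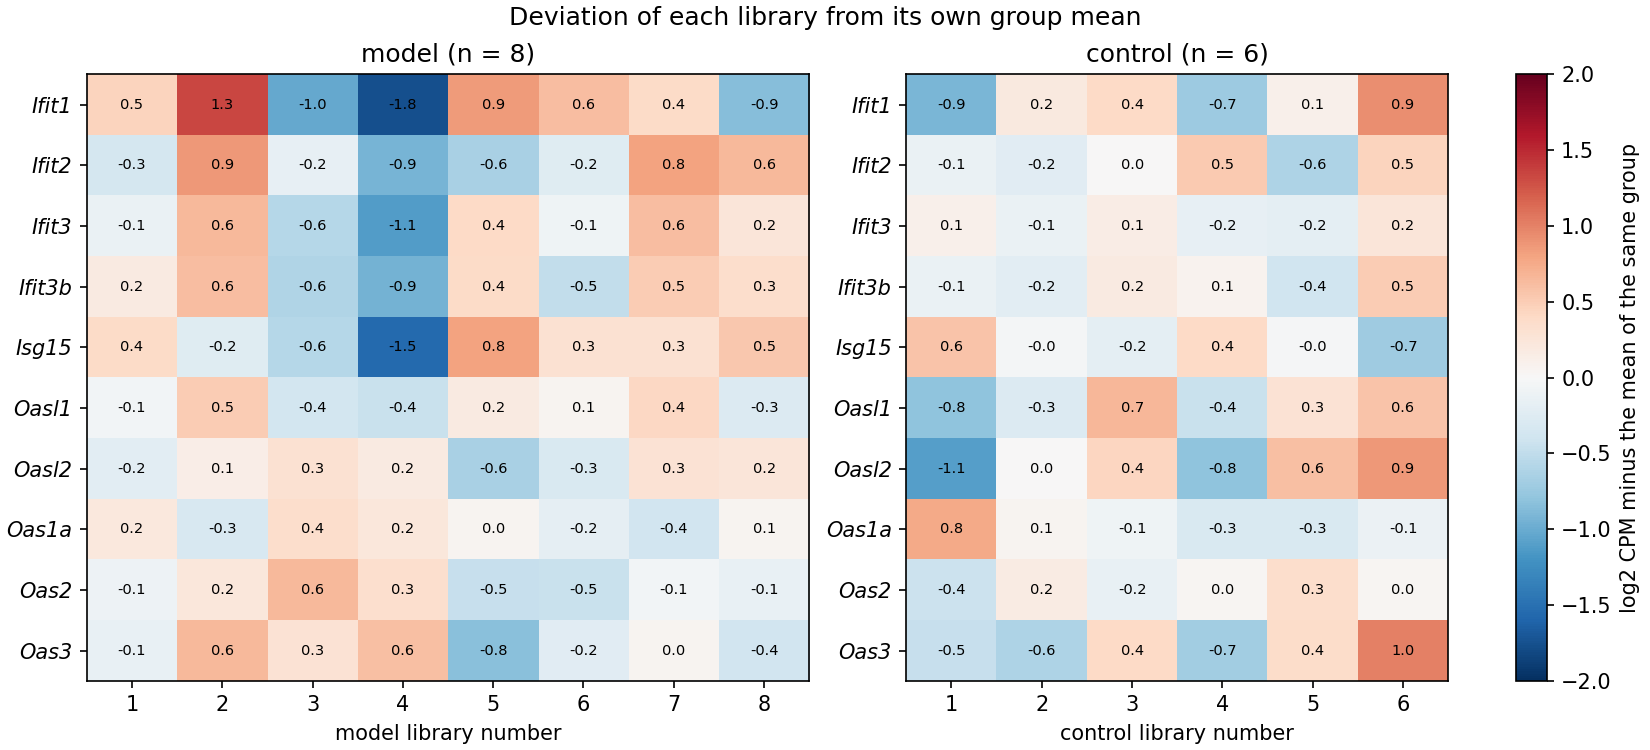
Log2 CPM of each library minus the mean of its own group, for model on the left and control on the right. Model 4 lies at -1.76 for Ifit1 and at -1.55 for Isg15, while it lies above it for Oas2, Oas3, Oasl2 and Oas1a.

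Transcripts of the interferons themselves were scarce at 24 h. Of 21 interferon genes, 18 had no count in any library, among them the 13 Ifna genes listed and both Ifnl genes, and none passed the filter on low counts. A count of 0 over a group allows up to 0.0299 CPM in model and 0.0401 CPM in control, for counting error alone, and the Ifna genes are near-identical copies that can lose reads. Ifnb1, the interferon beta gene, had 9 counts over 5 of the 8 model libraries and 1 count over the 6 control libraries. Ifng, the interferon gamma gene of T and NK cells, had 27 counts over 5 of the 8 model libraries and 0 over the controls. Ifnab had 9 counts over 5 model libraries and 0 over the controls. Without the low-count filter, Ifng and Ifnab were called higher by edgeR (adjusted p = 0.00724 and 0.0338) and Ifnb1 was not (adjusted p = 0.123).

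Of 9 interferon receptor and kinase genes, 6 were called higher and 0 lower, with a median log2 fold change of 1.38. Ifnar2, a chain of the type I receptor, rose by 0.98 (SE 0.18), to 36.8 ± 4.36 CPM in model against 18.6 ± 4.36 CPM in control (SD, n = 8 and 6). Ifnar1, the other chain, was at 26.9 ± 12.5 CPM in model and 18.0 ± 3.49 CPM in control (SD, n = 8 and 6) and did not pass the test (edgeR adjusted p = 0.0768). Its highest levels were 50.2 CPM in model 7 and 42.8 CPM in model 8, against 15.8 to 23.2 CPM in the other model libraries. It was called higher without model 5 (edgeR adjusted p = 0.043) or without control 6 (0.0362). Ifngr1, of the interferon gamma receptor, rose by 1.75 (SE 0.20). Jak2, a kinase of the same receptor, rose by 2.45 (SE 0.19), and Ifnlr1, the interferon lambda receptor, rose by 3.38 (SE 0.37) to 2.26 ± 0.544 CPM in model against 0.0796 ± 0.113 CPM in control (SD, n = 8 and 6). The prior count of 2 shrank this change, which was 4.39 with a prior count of 0.5.

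Of 10 interferon-responsive transcription factors, 8 were called higher and 1 lower, with a median log2 fold change of 1.46. Among the factors that act at the response element, Stat2 rose by 1.58 (SE 0.23) and Irf9 by 1.22 (SE 0.18). Irf7, the factor that amplifies interferon genes, rose by 2.82 (SE 0.17), to 313 ± 34.3 CPM in model against 44.3 ± 6.18 CPM in control (SD, n = 8 and 6). Irf1 rose by 3.85 (SE 0.47), with 79.9, 89.4 and 101 CPM in model 4, model 7 and model 8 against 224 to 562 CPM in the other model libraries. Batf2 rose by 4.29 (SE 0.28). Irf3, which is activated by phosphorylation rather than by synthesis, fell by 0.59 (SE 0.16, edgeR adjusted p = 0.00577), to 25.3 ± 4.58 CPM in model against 38.4 ± 4.37 CPM in control (SD, n = 8 and 6).

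Of 16 tested genes of nucleic acid and LPS sensing, 14 were called higher and 1 lower, with a median log2 fold change of 1.88. Cd14, the LPS co-receptor, rose by 6.65 (SE 0.34), Tlr3, a receptor of duplex RNA, by 3.19 (SE 0.45), and Tlr4, the LPS receptor, by 2.30 (SE 0.25). Ticam1, the adaptor through which TLR3 and TLR4 reach interferon genes, was at 5.26 ± 2.73 CPM in model and 8.07 ± 2.74 CPM in control (SD, n = 8 and 6) and did not pass the test (edgeR adjusted p = 0.116). It was called lower with library totals (adjusted p = 0.0476), with upper-quartile factors (0.041), without model 2 (0.0377) and without model 6 (0.0425). Mavs, the adaptor of the cytosolic RNA sensors, fell by 1.24 (SE 0.30), to 14.9 ± 7.21 CPM in model against 35.7 ± 15.6 CPM in control (SD, n = 8 and 6), with ranges that overlap.

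Of 6 tested genes that attach or remove ISG15, 4 were called higher and 0 lower, with a median log2 fold change of 1.28, and Usp41 had no row in the files. Herc6, the main ISG15 ligase of the mouse, rose by 2.83 (SE 0.26), Uba7, the activating enzyme, by 1.85 (SE 0.22), and Ube2l6, the conjugating enzyme, by 0.71 (SE 0.20). Usp18, which removes ISG15 and restrains the type I receptor, rose by 3.37 (SE 0.42), to 128 ± 59.5 CPM in model against 12.2 ± 4.03 CPM in control (SD, n = 8 and 6). Its lowest model libraries were model 4 and model 3, at 23.3 and 48.7 CPM, as for Isg15. Of 7 negative regulators of interferon signalling, Usp18 among them, 5 were called higher and 0 lower, with a median of 3.37. Tnfaip3, an NF-kB inhibitor, rose by 6.83 (SE 0.36), and Socs1, which blocks the receptor kinases, rose by 5.50 (SE 0.42; 6.42 with a prior count of 0.5).

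Among 31 other tested antiviral genes that interferon induces, 28 were called higher and 0 lower, with a median log2 fold change of 2.77. Rsad2, which encodes viperin, rose by 5.60 (SE 0.44), to 324 ± 196 CPM in model against 6.48 ± 2.37 CPM in control (SD, n = 8 and 6). Ifi205, of the PYHIN family, rose by 5.81 (SE 0.37), and Mx1, of the MX GTPase family, by 3.81 (SE 0.27). Promoter windows were at hand for 23 of the genes on this list, and 9 of them held the response element core, 39.1%.

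The genes most like the 10 were sought by the root mean square difference, over all 14 libraries, between the centred log2 CPM of a gene and the mean profile of the 10, among 8617 genes with at least 5 CPM in model. The nearest 5 were Gbp3, a guanylate-binding protein (0.274 on the log2 scale), Pfkp, a form of phosphofructokinase (0.348), Trim30a, a TRIM family protein (0.349), Klf6, a zinc finger factor (0.356), and Mx1 (0.361). Because the centring spans both groups, this measure depends strongly on the fold change. Log2 fold changes of these 5 genes lay between 3.81 for Mx1 and 4.34 for Gbp3. Shared regulation was not tested. The 10 genes themselves lay at 0.295 for Ifit3b to 0.858 for Oas3. When only the 8 model libraries were compared, the nearest 5 were other genes, with 0 in common.

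**Figure D4:**
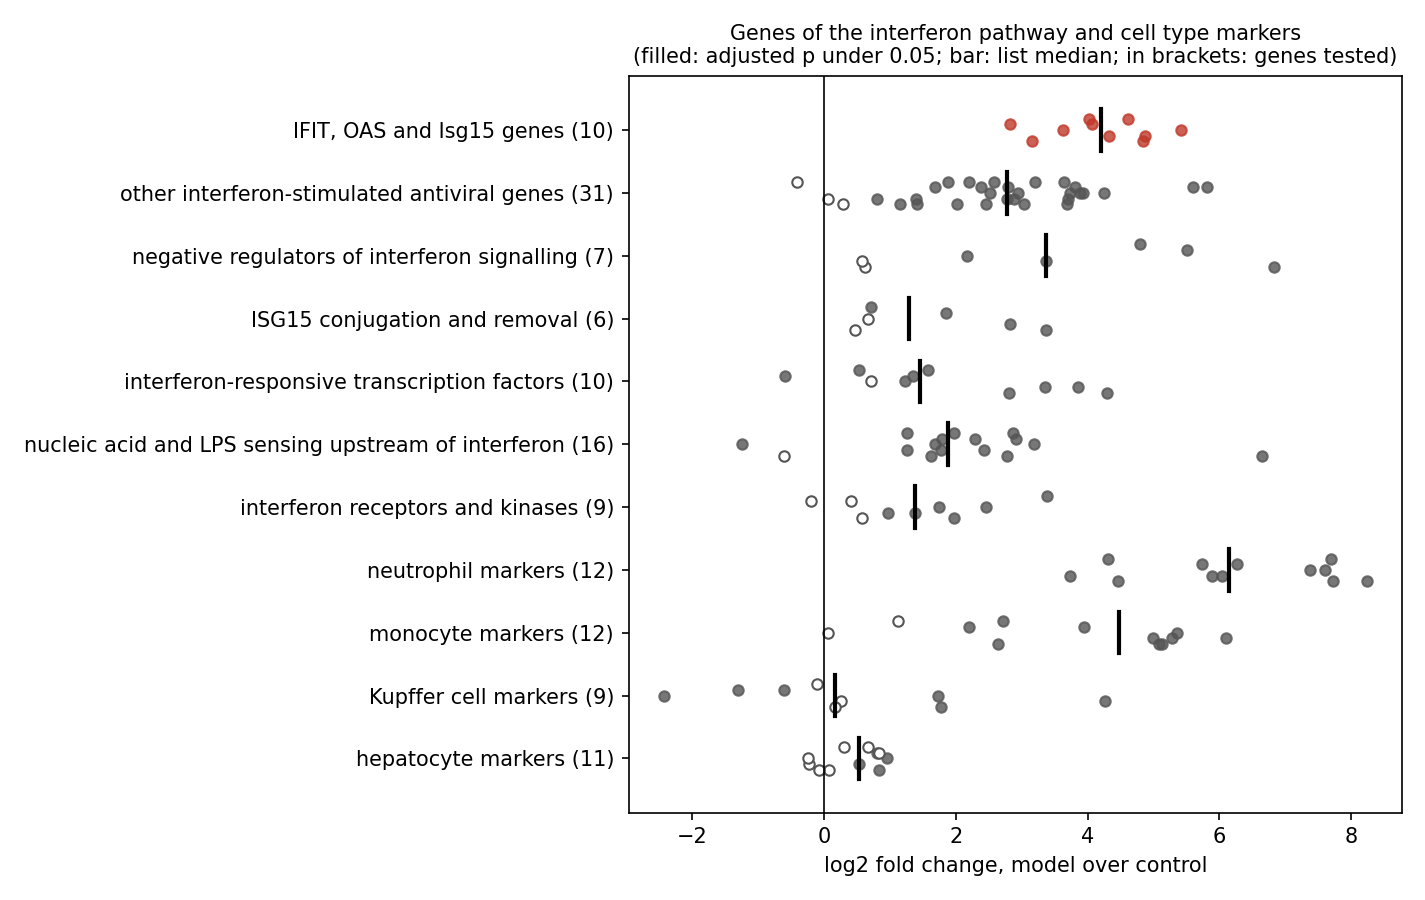
Log2 fold change, model over control, of each tested gene of the pathway lists and of the neutrophil, monocyte, Kupffer cell and hepatocyte markers, with filled points at an adjusted p under 0.05 and a bar at the list median. The 10 genes (red) lie between 2.83 and 5.42, to the right of most points of the receptor and transcription factor lists and to the left of most neutrophil markers.

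Markers of blood-borne cells moved in the same livers. All 12 neutrophil markers were called higher (median log2 fold change 6.16), and their summed level was 1277 to 2900 CPM in model and 4.15 to 17.2 CPM in control. Of 12 monocyte markers, 10 were called higher and 0 lower (median 4.47), with a summed level of 1199 to 1707 CPM in model and 564 to 1099 CPM in control. The 2 that were not called held most of that sum in control, so the sum says little of the 10 that were called. F10 averaged 492 ± 116 CPM in model and 471 ± 55.2 CPM in control (SD, n = 8 and 6). Fn1 averaged 452 ± 260.4 CPM in model and 207 ± 223 CPM in control (SD, n = 8 and 6). Of 9 Kupffer cell markers, 3 were called higher and 3 lower (median 0.17), with sums of 319 to 666 CPM in model and 332 to 483 CPM in control. Marco, Adgre1 and Timd4 had log2 fold changes of 4.27, 1.77 and 1.73 (SE 0.36, 0.27 and 0.25). Cd163, Vsig4 and Cd5l were at -2.43, -1.30 and -0.61 (SE 0.40, 0.26 and 0.20). The largest part of the sum was C6, not called, at 163 ± 66.4 CPM in model and 136 ± 55.7 CPM in control (SD, n = 8 and 6). Of 10 dendritic cell markers, 5 passed the filter on low counts, and of these 3 were called higher and 0 lower. Of the untested ones, Ccr9, Flt3 and Clec9a pooled to 0.796, 0.587 and 0.707 CPM in model and 0.134, 0.267 and 0.614 CPM in control. Xcr1 and Cd209a went the other way, at 0.159 and 0.0896 CPM in model and 0.294 and 0.174 CPM in control. The list summed to 15.3 to 23.4 CPM in model and 6.22 to 9.65 CPM in control. Of 14 T, NK and B cell markers, 10 passed that filter, and of these 6 were called higher and 0 lower. The whole list summed to 11.6 to 32.8 CPM in model and 6.99 to 16.8 CPM in control. Sinusoidal endothelial markers had 2 higher and 3 lower of 10, with sums of 193 to 386 CPM in model and 146 to 212 CPM in control. Stellate and biliary markers had 8 higher and 2 lower of 11, with sums of 448 to 833 CPM in model and 233 to 323 CPM in control. No marker was at 0 in all libraries. The part of these cells in the levels of the 10 genes was not tested. Hepatocyte markers summed to 97249 to 108299 CPM in model and 67545 to 85869 CPM in control, with 4 of 11 called higher and 0 lower. Alb, the most abundant of them, averaged 52287 ± 8090 CPM in model and 29439 ± 10093 CPM in control (SD, n = 8 and 6). Apoa1, Apoa2 and Ttr averaged lower in model and were not called. Beside the counts of these lists, 26.6% of all genes tested were called higher and 21.3% lower.

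Total counts in genes were 10329469 to 16639972 in model libraries and 7914120 to 14463540 in control libraries. Scaling by library totals in place of TMM factors moved the median log2 fold change of all genes to -0.23 and the split of all calls to 2533 higher and 3955 lower, against 3437 and 2751 with TMM factors. Under that scaling all 10 genes were called higher, with log2 fold changes between 2.54 and 5.17.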

How the data were processed

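Per the labels' protocols, mRNA of 8 model and 6 control livers was captured with oligo(dT) beads and sequenced on an Illumina instrument. For each sample the authors deposited unnormalized gene-level read counts; CPM was computed from them. Reads were aligned with HISAT2 to GRCm39, per the submitters' processing notes. The counter, the strandedness and the gene models used are not stated. Below the genes, 5 summary lines name no gene, and these held 27.4% to 45.6% of all entries and were kept out of totals and tests. If strand was ignored in counting, a gene and an overlapping gene on the other strand cannot be told apart. Of the 10 genes, Oasl1 has 38 exonic bases in common with Gm13822 on the other strand in GENCODE M21.

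Genes were filtered with filterByExpr and tested with edgeR 4.0.16 in R 4.3.3 (TMM factors, robust quasi-likelihood fit, group as the only term, Benjamini-Hochberg adjustment over 12915 genes). Calls needed an adjusted p under 0.05. Fold changes used a prior count of 2, with SE taken as the absolute log2 change over the square root of F. The test was run on simulated counts first. A chi-square of counts over genes was at least 23.3 times its degrees of freedom in each of 43 pairs within a group, so no library was counted as a repeat. Alternatives were DESeq2 1.42.0, limma-voom (limma 3.58.1), other scalings, no filter, other prior counts, a length offset, a replicate block and left-out libraries.

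The genes and lists were chosen with earlier results of these data known. Besides the 10 genes, the text names a fixed set of pathway genes, the 2 largest called changes (at 1 CPM or more in a group) and every called decrease of each pathway list, and the 5 most similar genes, predicted genes left out. Oas1b to Oas1h, Ifnab and the cell type markers named, among them F10 and Fn1, follow no such rule and were named after their values were seen. The authors' counts limit precision by depth, and floors cover counting error only. Some genes of the lists are not reported here.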

Additional observations from a re-analysis of the deposited data

Results flagged for a closer look

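Among the 20 sets of values made by the 10 genes in model and in control livers, 1 held a library far from the others of its group. For Oas1a, control 1 was at 9.12 CPM, while the other control libraries were at 4.24 to 5.52 CPM. Chance alone marks about 1 in 20 such sets. Oas1g, which shares sequence with Oas1a, was also highest among controls in control 1, at 3.60 CPM against 0.593 to 1.81 CPM. Without control 1, the log2 fold change of Oas1a was 3.34, against 3.15 with it.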

How the results depend on the processing

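All 10 genes were called higher under each of the 26 alternatives computed, which makes 260 of 260 values with the same direction and call. Leaving out each library in turn gave log2 fold changes of 4.54 to 5.11 for Ifit1, 5.25 to 5.72 for Oas3 and 2.68 to 2.98 for Oasl1. The counts of list genes that moved by over 1.5 times, or away from 0, were these. With library totals, 2 sensing genes, 1 other antiviral gene, 1 lymphocyte marker and 1 hepatocyte marker were lower, and 1 hepatocyte marker was higher. With upper-quartile factors, 2 sensing genes were lower and 2 hepatocyte markers higher, and the median log2 fold change of all genes was -0.14. Without the low-count filter, 2 interferon genes were higher. Without model 7 and model 8, 1 stellate or biliary marker was lower. Over fits that each left out 1 library, sensing genes called lower numbered 1 to 2 (2 without model 2 or model 6), stellate and biliary markers called lower 1 to 2 (1 without model 6, 7 or 8 or control 1, 4 or 5), and hepatocyte markers called higher 2 to 5 (2 without model 2, control 1 or control 2). Counts that moved by 1.5 times or less included T, NK and B cell markers called higher (4 with library totals), transcription factors called higher (7) and endothelial markers called lower (4) under the same scaling, and, over fits without 1 library, ISG15-handling genes called higher (4 to 6) and negative regulators called higher (5 to 7). The causes were not tested. Same-numbered model and control libraries correlated between -0.34 and 0.36 in their deviations from the group means. These correlations cannot decide whether the numbers pair the samples, because library-wide trends such as that with exonic length enter them. With the replicate block, all 10 genes were called higher, 2985 genes of all were higher and 2390 lower, 1 stellate or biliary marker was lower and 2 hepatocyte markers were higher. With a longer motif (AG, TTTC, any 2 bases and TTTC), 4 of the 9 genes with a promoter window matched, against 6 with the core. At this depth no interferon gene passed the low-count filter, and absent transcripts and undetected ones cannot be told apart.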
